A study of Mus musculus with 7 samples.

Results

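Genes that mark the steps from an oligodendrocyte precursor to a newly formed oligodendrocyte were examined in the medial prefrontal cortex of mice. The 8 genes were fixed by name as Pdgfra, Cspg4, Lhfpl3, Gpr17, Bmp4, Neu4, Enpp6 and Bcas1, and each matched 1 of the 17732 genes in the authors' deposited table. All 7 libraries came from wild-type males of the inbred strain 129SvEv, and the tissue was collected once a remote memory had been retrieved. Going by the titles, CFC holds 3 libraries and SC holds 4. Neither name is explained in the labels, and no age is stated. The labels do not say whether a library is 1 animal or a pool, so the p-values may measure a technical spread. The implied question was whether these stage genes differed between the groups.

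Oligodendrocytes wrap axons in myelin. They arise from precursor cells that persist in the adult cortex, divide, and respond to platelet-derived growth factor. A precursor that commits to the lineage passes through a brief intermediate state and then becomes a newly formed oligodendrocyte, before it makes compact myelin. Genes of the intermediate and newly formed states are used as signs that new oligodendrocytes are being made, a process that is known to continue in the adult and to be influenced by learning.

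The values came from the authors' deposited table, which gives for each gene a mean normalized count over all libraries, a log2 fold change between the groups and its standard error. Values of individual libraries were not analysed here, so no value per library or per group can be shown. The table does not say which group is the numerator, and each difference is therefore described by its sign and not by a group. In bulk tissue, fewer cells of a type and less RNA per cell cannot be told apart.

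In the authors' deposited table, by the authors' Wald test, none of the 8 genes was under 0.05 after adjustment, where 0.513% of the 13060 genes with an adjusted p-value were. Before adjustment, 1 of the 8 genes, Enpp6, had a p-value under 0.05, beside 6.82% of the 17729 genes with a p-value, so the count of 1 is no result about these genes as a set. The 3 precursor genes and the 3 genes of the committed state lay between -0.14 and 0.22 on the log2 scale in the authors' deposited table. The newly formed stage genes Enpp6 and Bcas1 stood at 0.97 and 0.96 on that scale in the authors' deposited table, with wide errors. Among the 13060 genes, the authors' deposited table gave a median of -0.0017 on the log2 scale, with quartiles of -0.07 and 0.07.

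The stretches of 250 bases before the start of Pdgfra, Bmp4 and Enpp6 are shown to give 1 regulatory sequence for each stage. They are RefSeq promoters on GRCm38.p6, printed 5′ to 3′ on the strand of the gene. Capitals mark matches, on either strand, to the E-box CANNTG, bound by basic helix-loop-helix factors, and to the SOX core written as ACAAT or ACAAAG.
Pdgfra, chr5:75152001-75152250, plus strand: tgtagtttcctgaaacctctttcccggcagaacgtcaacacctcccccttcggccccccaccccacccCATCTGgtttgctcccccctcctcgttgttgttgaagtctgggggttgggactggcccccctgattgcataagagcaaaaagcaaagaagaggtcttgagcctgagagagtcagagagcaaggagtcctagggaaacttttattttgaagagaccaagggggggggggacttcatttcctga
Bmp4, chr14:46390670-46390919, minus strand: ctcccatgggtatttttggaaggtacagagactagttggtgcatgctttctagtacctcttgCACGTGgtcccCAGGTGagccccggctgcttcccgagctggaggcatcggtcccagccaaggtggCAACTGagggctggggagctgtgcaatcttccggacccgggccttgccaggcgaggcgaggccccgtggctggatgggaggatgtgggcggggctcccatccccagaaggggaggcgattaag
Enpp6, chr8:46986637-46986886, plus strand: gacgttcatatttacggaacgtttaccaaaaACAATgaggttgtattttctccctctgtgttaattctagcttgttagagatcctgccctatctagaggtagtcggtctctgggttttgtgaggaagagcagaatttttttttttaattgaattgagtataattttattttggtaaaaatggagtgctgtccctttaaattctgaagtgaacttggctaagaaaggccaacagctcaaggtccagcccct

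None of these stretches overlaps an exon of GENCODE M21. Pdgfra had 1 E-box and no SOX core in this window, Bmp4 had 3 E-boxes and no SOX core, and Enpp6 had 1 SOX core (ACAAT) and no E-box. Of the windows searched but not printed, Cspg4 had 1 SOX core (ACAAT) and no E-box. Neu4 had 1 SOX core (ACAAT) and 1 E-box, and Lhfpl3 had 2 E-boxes and no SOX core. A SOX core was thus found in a gene of each stage. Among all 32851 promoters of the same length, 66.2% held an E-box, 27.7% held ACAAT and 16.5% held ACAAAG, so matches of these kinds are common. The motif of MYRF, the factor that switches on myelin genes, was searched as CTGGCAC and CTGGTAC. It had no match in the windows of the 6 genes searched, which were Pdgfra, Cspg4, Lhfpl3, Bmp4, Neu4 and Enpp6. Gpr17 was left out of the search, and no promoter sequence was available for Bcas1. CTGGCAC and CTGGTAC were present in 4.19% and 1.83% of all promoters. The Enpp6 window had a GC content of 38.4%, beside a median of 52.4% over all promoters, and those of Pdgfra and Bmp4 had 54.4% and 63.2%.

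The 8 genes differed widely in level. Levels were compared as the mean normalized count divided by the summed length of the gene's exons in GENCODE M21, since reads from a transcript scale with its length. The summed length takes in the exons of all annotated transcripts of a gene, so the order of close values also depends on the annotation. Bcas1 was highest at 229 counts per kb, followed by Gpr17 at 144, Pdgfra at 127 and Lhfpl3 at 88.8. Cspg4 at 39.9, Neu4 at 30.3, Enpp6 at 14.8 and Bmp4 at 10.6 counts per kb were below the median of 63.7 over 17726 genes. The level did not follow the order of the stages, and each stage held genes above and below that median. Whether neighbours in this order differ beyond the spread between libraries could not be tested without values per library.

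Pdgfra (ENSMUSG00000029231, chromosome 5, 75152292 to 75198215 on GRCm38) encodes the receptor tyrosine kinase through which platelet-derived growth factor A sustains precursor cells. It had a mean normalized count of 1276 and a log2 fold change of -0.04 ± 0.09 (SE) in the authors' deposited table. The 95% confidence interval, computed as normal from that error, ran from 0.867-fold to 1.09-fold. This was the narrowest interval of the 8 genes on the log2 scale. Exons of Gm42802, Gm42803 and Mir7025 overlap 4.55%, 1.66% and 0.299% of its exon bases in GENCODE M21.

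Cspg4 (ENSMUSG00000032911, chromosome 9, 56865033 to 56899870) encodes the proteoglycan NG2 on the surface of precursors and also of mural cells of vessels. Its mean normalized count was 476 and its log2 fold change 0.05 ± 0.09 (SE) in the authors' deposited table, and the interval ran from 0.917-fold to 1.18-fold. Lhfpl3 (ENSMUSG00000106379, chromosome 5, 22746059 to 23275597), a tetraspan membrane protein gene, had a mean normalized count of 285 and a log2 fold change of 0.22 ± 0.13 (SE) in the authors' deposited table. Its unadjusted p-value was 0.0896 and its adjusted p-value 0.795 in the authors' deposited table, and the interval from 0.977-fold to 1.39-fold included no difference. In GENCODE M21, 17.6% of the exon bases of Lhfpl3 overlap the noncoding gene A930003O13Rik on the other strand, and reads of the pair cannot be told apart without the strand setting.

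Pdgfra is also expressed by fibroblasts of the vessels and meninges, and Cspg4 by mural cells, so markers of both were read. Of 10 mural markers, all were listed and 8 had an adjusted p-value. None of the 8 was under an unadjusted p-value of 0.05, and their median log2 fold change was -0.05. Of 8 fibroblast and leptomeningeal markers, all were listed, none of them at a mean count of 0, with a summed mean count of 260 beside 3348 for the mural markers. The 3 fibroblast markers with an adjusted p-value were positive (median 0.27 on the log2 scale), none of them under 0.05 before adjustment. The part of these cells in the values of Pdgfra and Cspg4 was not tested.

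The committed state was read from 3 genes. Gpr17 (ENSMUSG00000052229) encodes a G protein-coupled receptor that is switched on for a short time in committed cells and holds back their maturation. It had a mean normalized count of 750 and a log2 fold change of -0.12 ± 0.11 (SE) in the authors' deposited table. Its interval ran from 0.797-fold to 1.06-fold. This leaves out the estimate for Enpp6, 1.96-fold, but overlaps the interval of Enpp6, which starts at 1.04-fold. Exons of Gpr17 overlap those of Lims2 on the other strand over 3.62% of their bases.

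Neu4 (ENSMUSG00000034000, chromosome 1, 94020451 to 94028334) encodes a sialidase, an enzyme that removes sialic acid from glycans. It had a mean normalized count of 141 and a log2 fold change of -0.14 ± 0.15 (SE) in the authors' deposited table, and its interval ran from 0.738-fold to 1.11-fold. Bmp4 (ENSMUSG00000021835, chromosome 14, 46383520 to 46390669) encodes a secreted ligand that restrains oligodendrocyte maturation. It was the least abundant, with a mean normalized count of 23.8 in the authors' deposited table. This was below the lowest mean count that received an adjusted p-value there, 34.9, and Bmp4 has none. Its log2 fold change was 0.08 ± 0.36 (SE) in the authors' deposited table, and its interval from 0.644-fold to 1.73-fold included differences of moderate size in either direction. The gene Gm15217 on the other strand overlaps 3.96% of its exon bases.

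Enpp6 (ENSMUSG00000038173, chromosome 8, 46986887 to 47096762) encodes a choline-specific glycerophosphodiesterase and is used as a transient marker of newly forming oligodendrocytes. With a mean normalized count of 94.7, its log2 fold change was 0.97 ± 0.47 (SE) in the authors' deposited table. The p-value was 0.0387 before and 0.599 after adjustment in the authors' deposited table, and 5.7% of the genes with a p-value had a smaller one. The interval ran from 1.04-fold to 3.7-fold.

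Bcas1 (ENSMUSG00000013523, chromosome 2, 170346991 to 170427845) encodes a protein that marks early myelinating oligodendrocytes. Its mean normalized count was 866, and its log2 fold change was 0.96 ± 0.50 (SE) in the authors' deposited table. The unadjusted p-value was 0.0569 and the adjusted p-value 0.685 in the authors' deposited table. The interval, from 0.981-fold to 3.84-fold, just included no difference. Antisense transcripts Bcas1os1 and Bcas1os2 overlap 11.7% and 0.901% of its exon bases in GENCODE M21. The plot of fold changes in lineage order shows the newly formed stage genes apart from the other 6 in value, with intervals that reach back to values near 0.

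**Figure D1:**
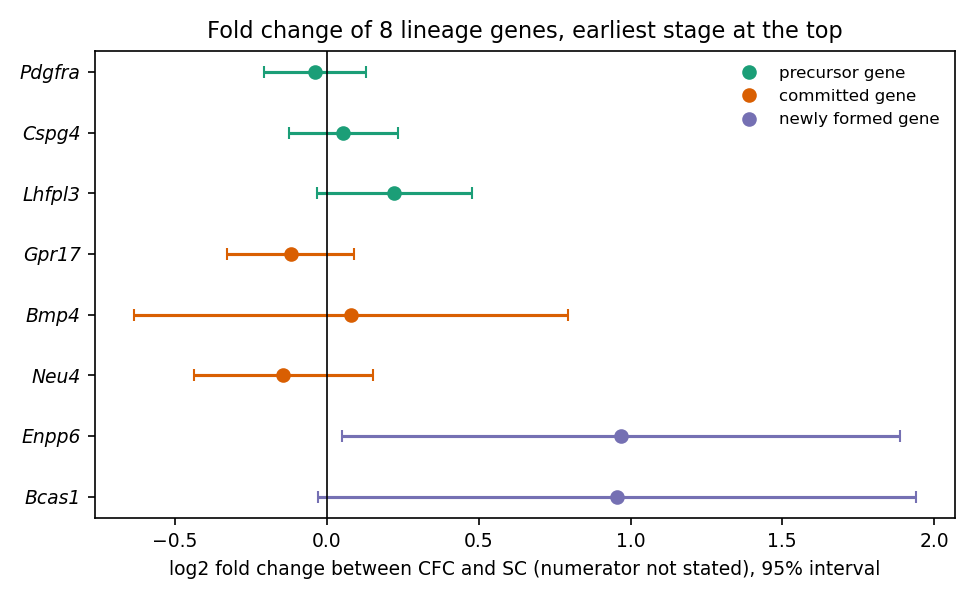
Log2 fold change between CFC and SC (x axis, numerator not stated) of the 8 genes in lineage order (y axis), with 95% confidence intervals from the deposited standard errors. The 6 precursor and committed genes lie between -0.14 and 0.22, and Enpp6 and Bcas1 lie at 0.97 and 0.96 with wide intervals.

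Whether the newly formed genes differed from the earlier ones was bounded rather than tested, because 2 genes measured in the same libraries can share errors and their correlation was not analysed here. Enpp6 exceeded Pdgfra by 1.01 in log2 fold change. The 95% interval of this difference ran from 0.07 to 1.94 if the errors were unrelated, from 0.26 to 1.76 if they moved fully together and from -0.08 to 2.09 if they moved fully apart. Bcas1 exceeded Pdgfra by 0.99, with intervals from -0.0034 to 1.99, from 0.18 to 1.81 and from -0.16 to 2.15 under the same assumptions. Of the 6 pairs of a newly formed and a precursor gene, 1 excluded 0 with unrelated errors, 6 with errors fully together and 0 with errors fully apart. Over all 21 pairs of genes from different stages the numbers were 6, 17 and 0. These numbers take in both directions, with pairs such as Lhfpl3 and Gpr17 in which the later gene had the lower value. No p-value was drawn from these pairs, and the difference between stages remained unresolved.

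The errors of the 2 newly formed genes stood apart from those of the other 6. Each standard error was divided by the median standard error of a window of genes nearest in mean count, so that a ratio of 1 is usual for that abundance. The ratio was 1.2 for Pdgfra, 0.947 for Cspg4, 1.11 for Lhfpl3, 1.28 for Gpr17, 0.983 for Bmp4 and 0.944 for Neu4. It was 2.44 for Enpp6 and 6.34 for Bcas1. A ratio above 2 was found in 1.85% of the 13060 genes with an adjusted p-value, and those genes form a band above the main trend where standard errors are plotted against mean counts. Both newly formed genes lie in that band and the other 6 do not.

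**Figure D2:**
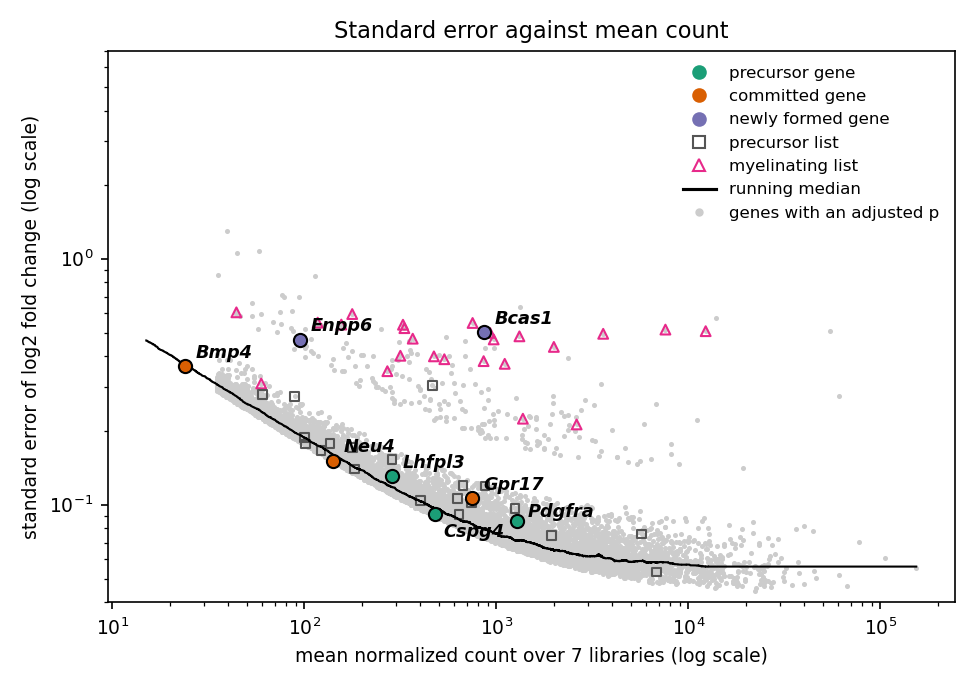
Standard error of the log2 fold change (y axis, log scale) against mean normalized count (x axis, log scale). Grey points are genes with an adjusted p-value, the line is the running median, and the 8 genes, the precursor list (squares) and the myelinating list (triangles) are marked. Enpp6 and Bcas1 lie at 2.44 and 6.34 times the line, among the triangles.

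The size of an error can be split into counting noise and spread between libraries. Counting noise alone, for groups of 3 and 4 libraries at the mean count of each gene, would give standard errors of 0.03 for Pdgfra and 0.04 for Bcas1. It made up 13.1% of the squared standard error of Pdgfra, 38.6% of that of Neu4 and 38.1% of that of Bmp4. For Enpp6 the share was 5.94% and for Bcas1 0.564%. Of the 8 genes, the share was highest in Neu4 and lowest in Bcas1.

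The remaining spread corresponds to a coefficient of variation between libraries of 7.2% for Pdgfra, 6.95% for Cspg4, 10.3% for Lhfpl3, 8.91% for Gpr17, 10.7% for Neu4 and 26% for Bmp4. It was 41.2% for Enpp6 and 45.4% for Bcas1. These values assume libraries of similar depth. In a table of this kind the spread of most genes is drawn towards that of genes of similar abundance, and the spread of a gene far above the trend is left as measured, so the smaller values are partly those of other genes. With 67 genes under an adjusted p-value of 0.05, the smallest absolute Wald statistic among them was 3.68. At its own standard error, a gene would have reached that statistic at a fold change of 1.24 for Pdgfra, 1.31 for Gpr17, 1.47 for Neu4, 2.54 for Bmp4, 3.31 for Enpp6 and 3.6 for Bcas1.

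**Figure D3:**
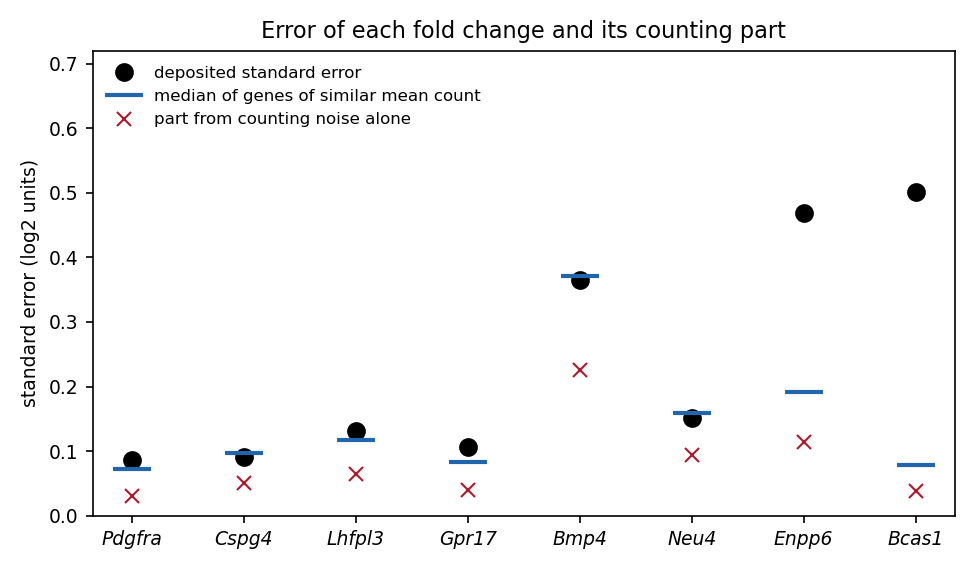
Standard error of the log2 fold change (y axis, log2 units) for the 8 genes in lineage order (x axis). Points are the deposited errors, bars the median of genes of similar mean count, and crosses the part from counting noise alone. The points of Enpp6 and Bcas1 lie far above both marks, while the other 6 lie close to the bars.

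Other genes of the same stages were read from lists that do not contain the 8 genes. The lists were chosen with earlier results of these data known, so their counts are a description and not a test. The part of other cells of the bulk tissue in the values of these lists was not tested. The precursor list held 20 genes, all with an adjusted p-value. None passed an adjusted p-value of 0.05, 12 were positive and 8 negative, and the median log2 fold change was 0.05. Before adjustment, 3 of them had a p-value under 0.05, all positive, beside 4.56% of all genes with an adjusted p-value that were so in the positive direction. Xylt1, a xylosyltransferase that starts proteoglycan sugar chains, had a log2 fold change of 0.22 ± 0.07 (SE) in the authors' deposited table, at a p-value of 0.00267 before adjustment.

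Sox10, a transcription factor present from the precursor to the mature cell, had a log2 fold change of 0.60 ± 0.31 (SE) in the authors' deposited table, at an unadjusted p-value of 0.0484. Its error ratio was 3.13, the only ratio above 2 in the precursor list. The lineage factor Olig1 stood at 0.20 ± 0.12 (SE) and the proteoglycan gene Vcan at 0.20 ± 0.11 (SE) in the authors' deposited table. The cell cycle gene Ccnd1 had the lowest value of the list, -0.20 ± 0.10 (SE) in the authors' deposited table. The 95% intervals of 18 of the 20 genes lay within a log2 fold change of 1 in either direction, and that of Sox10 did not.

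For the committed and newly formed stages, 18 of 20 listed names were found and 16 had an adjusted p-value. None passed 0.05 after adjustment, 10 were positive and 6 negative, and the median log2 fold change was 0.08. Nkx6-2, a homeobox gene of the lineage, was the only one under an unadjusted p-value of 0.05, at a log2 fold change of 0.76 ± 0.37 (SE) and a mean normalized count of 45.6 in the authors' deposited table. Mycl stood at 0.30 and Tmem163 at 0.27 in the authors' deposited table, with p-values of 0.0513 and 0.058 before adjustment. Itpr2, a calcium release channel used as a marker of committed and newly formed cells, had a log2 fold change of -0.15 ± 0.10 (SE) in the authors' deposited table. No gene of this list had a standard error ratio above 2, and the median ratio was 1.06. The list thus held no other gene with both the size and the error of Enpp6 and Bcas1.

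Genes of the mature, myelinating cell were read for comparison, from a list chosen with earlier results of these data known. The counts below are therefore a description and not a test. All 24 with an adjusted p-value were positive (median 1.10 on the log2 scale), and none passed 0.05 after adjustment. Before adjustment, 19 had a p-value under 0.05, all positive, beside 4.56% of all genes with an adjusted p-value in that direction. A standard error ratio above 2 was found in 23 of the 24, with a median of 4.57. Of these 24, the largest value was that of Anln, an actin-binding protein gene, at a log2 fold change of 1.82 ± 0.54 (SE) in the authors' deposited table. The log2 fold changes of Enpp6 and Bcas1 and their error ratios lay within the ranges of these 24 genes, whose lowest log2 fold change was 0.05 for Enpp2. Whether the values of Enpp6 and Bcas1 move with those of the myelinating genes from library to library was not tested.

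**Figure D4:**
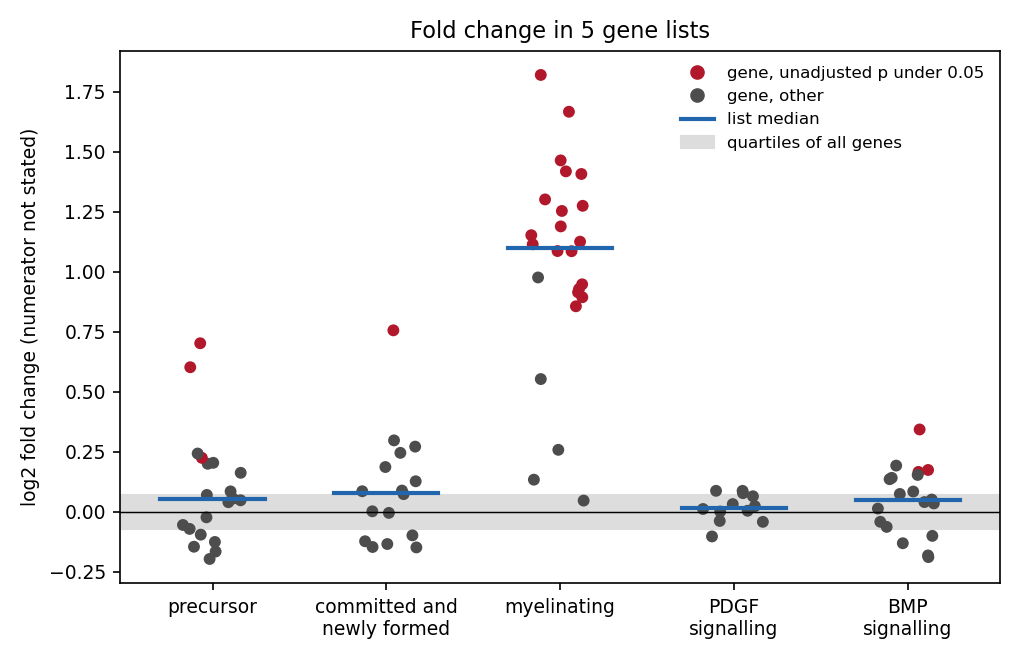
Log2 fold change (y axis, numerator not stated) of each gene with an adjusted p-value in 5 lists (x axis). Red points have an unadjusted p-value under 0.05, blue lines are list medians and the grey band spans the quartiles of all genes. The medians of the precursor list (0.05) and of the committed and newly formed list (0.08) lie inside and just above the band, and that of the myelinating list is 1.10.

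Signalling around Pdgfra and Bmp4 was read from the other genes of each pathway. These lists too were chosen with earlier results of these data known, and their counts are a description and not a test. Of 13 genes of platelet-derived growth factor signalling, 12 had an adjusted p-value, none was under 0.05 even before adjustment, and the median log2 fold change was 0.02. Among the 12, the extremes were the adaptor gene Shc1 at 0.09 ± 0.13 (SE) and the feedback inhibitor Spry2 at -0.10 ± 0.09 (SE) in the authors' deposited table. Of 21 genes of bone morphogenetic protein signalling, 19 had an adjusted p-value, none passed 0.05 after adjustment, and the median was 0.05. Before adjustment, 3 of the 19 had a p-value under 0.05, all positive, beside the same 4.56%. Bmp6, a ligand without an adjusted p-value and named after its values had been seen, was also under 0.05, with a p-value of 0.0374 and a log2 fold change of 0.75 ± 0.36 (SE) in the authors' deposited table. Id4, a target of the pathway that restrains differentiation, had a log2 fold change of 0.34 ± 0.11 (SE) in the authors' deposited table, where its p-value was 0.187 after adjustment. The other 2 of the 3 were the receptor genes Bmpr2 and Acvr2a, named after their values had been seen, at log2 fold changes of 0.17 and 0.17. Among the 19, the secreted antagonist Nog was lowest, at -0.19 ± 0.18 (SE) in the authors' deposited table.

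The nearest relatives of 3 of the genes were also read. Among the sialidases, Neu2 had a log2 fold change of -0.40 ± 0.24 (SE) and Neu3 of 0.16 ± 0.22 (SE) in the authors' deposited table. Of the 4 relatives of Enpp6 with an adjusted p-value, Enpp1 was highest at 0.48 ± 0.36 (SE) and Enpp5 lowest at -0.07 ± 0.06 (SE) in the authors' deposited table. Of the 3 relatives of Lhfpl3 found, Lhfpl2 was lowest at -0.10 ± 0.11 (SE) and Lhfpl5 highest at 0.02 ± 0.23 (SE) in the authors' deposited table. None of these 10 genes was under an unadjusted p-value of 0.05.

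The neurons of the labelled tissue were present, with all 6 excitatory neuron markers listed at a summed mean count of 167007 and all 6 inhibitory ones at 13345. Their median log2 fold changes were -0.02 and 0.0032, and Camk2a, a kinase gene of excitatory neurons, was under the adjusted threshold on the negative side. Markers of other cells were read in the same table, from lists chosen with earlier results of these data known. Their counts beside the shares of all genes are therefore a description and not a test. All 12 deep cortical layer genes were positive (median 0.49 on the log2 scale), 5 of them under an adjusted p-value of 0.05, beside 0.368% of all genes in that direction. Of the 8 upper layer genes, 7 were negative, with a median of -0.24 and 2 under that threshold, beside 0.145% of all genes. All 8 genes enriched in striatum were positive, with a median of 0.73, 1 of them (Drd1) under the threshold, and 6 of them had a standard error ratio above 2. Such a ratio was also found in 4 deep layer genes, 1 upper layer gene, 1 inhibitory neuron marker and 1 astrocyte marker. Of 8 dividing cell markers, 3 had an adjusted p-value, with a median log2 fold change of 1.94. None of the 3 passed the adjusted threshold, and 2 of them had a standard error ratio above 2. Before adjustment, 2 of the 3 had a p-value under 0.05 in the positive direction, beside 4.56% of all genes with an adjusted p-value. The lowest was Ccna2, at 0.06 ± 0.23 (SE) in the authors' deposited table. The highest was Top2a, at 2.65 ± 1.08 (SE) in the authors' deposited table, where its p-value was 0.406 after adjustment. Astrocyte, microglia and endothelial markers had medians of -0.03, -0.11 and -0.17, with none under the adjusted threshold and 1, 2 and 3 negative genes under 0.05 before adjustment, beside 3.54% of all genes. All markers of these 7 lists were listed and none was at a mean count of 0, and their part in the values of the 8 genes was not tested.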

How the data were processed

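Polyadenylated RNA was sequenced in 7 libraries, 3 labelled CFC and 4 labelled SC, each from 100 ng of RNA with the KAPA mRNA HyperPrep kit, per the labels' protocols. The submitters' processing notes name Trimmomatic, Subread, DESeq2 and mm10, and versions, annotation and strand setting are not given in the sources used here. Per the file headers, the authors deposited a mean normalized count (a signal averaged over libraries), a log2 fold change with its standard error, a Wald statistic (a score), and an unadjusted and an adjusted p-value per gene. The depth of each library is unknown.

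Dividing the log2 fold change by its standard error gave the deposited Wald statistic in 17729 genes, to within 1e-06. The planned test was the authors' own, read as deposited. Confidence intervals of 95%, standard error ratios and counting parts were computed in Python 3.11.15 with numpy 2.4.6, pandas 2.3.3 and scipy 1.17.1, and the code was tested on simulated data. Counting parts assumed equal depths and group means that follow from the mean and the fold change. Of 17732 gene IDs, 17726 were found in GENCODE M21 on GRCm38. The 19 symbols with several IDs were read at the ID of highest mean count. Named genes were the 8 members and, of each list, those under the adjusted threshold (at most 5), the highest and the lowest, with up to 6 of smallest p-value in the stage lists. One gene that this rule names in the precursor list is not reported here. The members and lists were chosen with earlier results of these data known.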

Additional observations from a re-analysis of the deposited data

How the results depend on the processing

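None of the 55 adjusted p-values computed for 7 of the 8 genes under 8 alternatives passed the threshold. Bmp4 is not among the 55, because it has no adjusted p-value in the main setting. With no filter on the mean count, where Bmp4 was adjusted as well, 0 of the 8 genes passed. Enpp6 had no adjusted p-value under the stricter filter on mean counts. The lowest of the 55 was 0.565, for Enpp6, whose values ran from 0.565 to 1, and those of Bcas1 from 0.62 to 1. The 1 gene under an unadjusted p-value of 0.05 became 0 against a null of up to 1.2-fold, which is stricter by construction. The 67 genes under the threshold, 0.513% of 13060, became 0.773% (68 positive, 33 negative) at a threshold of 0.1, 0.161% (17 positive, 4 negative) after a Bonferroni adjustment and 0.023% (2 positive, 1 negative) against the 1.2-fold null, and lay between 60 and 75 genes under the others. With a narrower or a wider window of neighbours, the standard error ratio of Enpp6 ran from 2.42 to 2.44 and that of Bcas1 from 6.31 to 6.34. Taking the group of 4 as the numerator, an alternative added after the data had been seen, moved the implied variation of no gene by more than 0.265 percentage points. Of 457 adjusted p-values of the 59 named genes under alternatives, 12 went above the threshold and none below it or to the other sign, and the 12 were all of cortical layer genes, Drd1 and Camk2a.

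No paired analysis was possible because values of individual libraries were not analysed here. For that reason the planned fits without each library and with other normalizations were not run, and whether 1 library decides the values of Enpp6 and Bcas1 was not tested.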
